A study of Mus musculus with 4 samples.

Results

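The KMT9alpha peak list of mouse colorectal tumour organoids was described on its own. Its members were all rows placed on chromosomes 1 to 19, which gave 25700 of the 26227 peaks in the list and left out 527 on other sequences. They were part of 175694 autosomal peaks of the series, of which 89936 came from KMT9beta and 60058 from H4K12me1. The material was organoids, three-dimensional epithelial cultures, started from a tumour that azoxymethane, a carcinogen, and dextran sulfate sodium, an agent that inflames the colon, had induced. All libraries came from clone 3 at passage 14, that is from 1 tumour line. The genotype is entered as NA. The treatment text names tamoxifen at 1 µM together with vehicle and does not say which of them this library received, so treatment could not be examined. Each antibody was used in 1 library, and no value below has a replicate check. No p-value was computed. The sequencing depth is unknown. An input library belongs to the series but is not analysed here.

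KMT9alpha is the product of N6amt1. It forms a methyltransferase with a small partner protein, the product of Trmt112, and this complex, KMT9, is known to place a single methyl group on lysine 12 of histone H4. The enzyme has been linked to the growth of tumour cells. A ChIP-seq peak is a stretch of genome where fragments pulled down by an antibody pile up, and it shows where the protein lay near DNA, not what it did there. A promoter is the DNA around the start of a gene, and in mammals many promoters lie in stretches rich in CpG, the base pair step that is lost from most of the genome.

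Sequences of 5 peaks at genes of the lists described below are printed first, as examples of peaks near gene starts that hold letters recognised by known factors. They were chosen after their values were seen. Each is read from the RefSeq GRCm38.p6 assembly in the direction of the gene, and capitals mark a match to the letters named. N6amt1, which encodes KMT9alpha itself, has CCGGAAGT, letters bound by ETS factors, at chr16:87354427-87354507. Nop58, a protein of small nucleolar RNA particles, has the E-box CACGTG, the site of MYC-type factors, at chr1:59685346-59685426. Mcm5, a part of the replicative helicase, has the cAMP response element TGACGTCA at chr8:75109374-75109454. Nkd1 and Axin2, which both act as feedback inhibitors of Wnt signalling, have the TCF/LEF letters ATCAAAG, on the opposite strand in Nkd1, at chr8:88521234-88521314 and chr11:108922379-108922459. None of these windows holds annotated UTR sequence, and none of the matches lies in an annotated exon.
N6amt1: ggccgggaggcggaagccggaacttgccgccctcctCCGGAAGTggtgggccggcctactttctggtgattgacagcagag
Nop58: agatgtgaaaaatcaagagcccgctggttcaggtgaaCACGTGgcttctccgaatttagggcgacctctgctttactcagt
Mcm5: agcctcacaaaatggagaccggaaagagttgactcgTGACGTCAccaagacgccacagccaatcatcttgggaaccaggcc
Nkd1: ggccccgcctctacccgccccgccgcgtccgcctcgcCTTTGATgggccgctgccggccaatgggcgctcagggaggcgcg
Axin2: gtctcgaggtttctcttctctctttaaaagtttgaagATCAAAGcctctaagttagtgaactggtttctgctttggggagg

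A further set of 7 sequences shows the letters AAGATGGCG, a core recognised by the factor YY1, at peaks more than 1 kb from any coding start. The set is shown because most such matches lay in repeats. Each is 33 bases long and reads along the strand on which the letters appear. The first 4 lie in bases that the assembly marks as repeats. They come from chr17:60783894-60783926 (nearest coding start that of Nudt12, 1770562 bp away), chr6:59200350-59200382 (Tigd2, 8510 bp), chr4:72679312-72679344 (Aldoart1, 173162 bp) and chr3:79770260-79770292 (Rxfp1, 32352 bp). In the other 3 the letters lie outside repeats, in peaks with a score of 3100, at chr15:37135641-37135673 (Grhl2, 97312 bp), chr4:48043161-48043193 (Nr4a3, 1956 bp) and chr7:73618336-73618368 (Chd2, 76550 bp). The printed examples were chosen for high scores. Of 32 peaks beyond 1 kb with a match outside repeats, 7 scored 3100 or more and 16 scored below 300.
Nudt12 repeat: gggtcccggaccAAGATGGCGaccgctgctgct
Tigd2 repeat: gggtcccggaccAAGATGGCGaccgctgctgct
Aldoart1 repeat: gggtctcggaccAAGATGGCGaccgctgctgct
Rxfp1 repeat: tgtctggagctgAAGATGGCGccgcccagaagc
Grhl2 distal: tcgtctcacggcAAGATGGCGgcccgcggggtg
Nr4a3 distal: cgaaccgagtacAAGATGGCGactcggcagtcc
Chd2 distal: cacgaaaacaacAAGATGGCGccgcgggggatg

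Scores in the list gathered in a low group and at a ceiling. The score is the authors' own value for each peak. What it stands for is not stated in the labels or the file, so it is used only to order peaks within the list. It ran from 50.01 to 3233.06 with a median of 313.93. Scores of 150 to 300 held 10200 peaks (39.7%), and the much wider range of 300 to 3100 held 8206. At the other end 4949 peaks (19.3%, exact binomial 95% interval 18.8 to 19.7) scored 3100 or more. The interval of 100 points just below, from 3000 to 3100, held 115 peaks. Here and below, an interval covers counting error within 1 library, and neighbouring peaks are not independent.

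**Figure D1:**
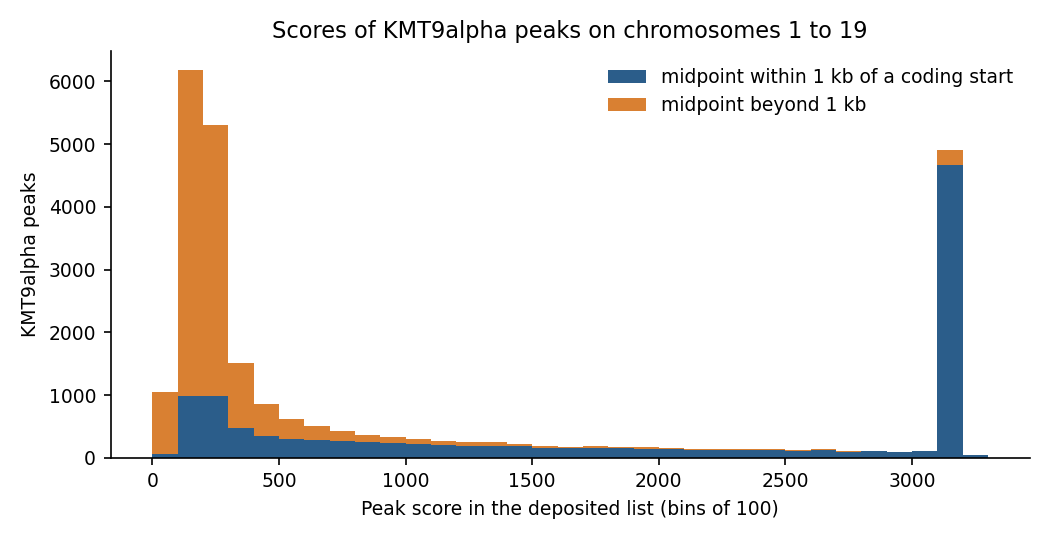
Number of KMT9alpha peaks (vertical axis) in score bins of 100 (horizontal axis), with blue for midpoints within 1 kb of a coding start and orange for midpoints farther away. The low bins are mostly orange, the bin that starts at 3100 is nearly all blue (4663 of its peaks near, 248 far), and the bin just below it holds 109 near and 6 far peaks.

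The ceiling was nearly a single number. Exactly 3100 was given to 4801 peaks, whereas the 20751 peaks below it carried 13277 distinct scores. The remaining 148 peaks scored above 3100, with 142 distinct values. Ranking among the peaks at exactly 3100 is therefore not possible from the list, so differences in height among these promoters cannot be seen. Cell cycle genes illustrate this. Ccnd1, which encodes cyclin D1, was listed at 3177.77, Mcm7, another helicase subunit, at 3104.1, and Cdk2, E2f1, Cdk4 and Rb1 all at 3100. Why some scores exceed 3100 is not stated, so these genes cannot be put in order. The median width was 1452.5 bp for peaks above 3100 and 1666 bp for those at exactly 3100.

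Width rose with score. The median width was 828 bp (quartiles 634 and 1325), and it was 635 bp for scores of 150 to 300, 1102 bp for scores of 300 to 3100 and 1657 bp at the ceiling. Across all peaks Spearman's rho between score and width was 0.79. Below the ceiling it was 0.68, with 0.77 for peaks within 1 kb of a start and 0.43 for those farther away. Among the 148 peaks above 3100 it was 0.08. These are descriptions across peaks of 1 library, and score and width share the same reads.

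Many peaks shared nearly the same low width. A width of 600 to 650 bp was shared by 4712 peaks (18.3%), of which 79.3% scored 150 to 300 and 16.98% lay within 1 kb of a start. Dividing the peaks below the ceiling into 10 equal groups by score, the median width stayed between 617 and 641 bp in the 5 lowest groups. It then rose through 696, 826, 1051 and 1201 bp to 1383 bp in the highest group. The first of these rising groups started at a score of 241.25.

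**Figure D2:**
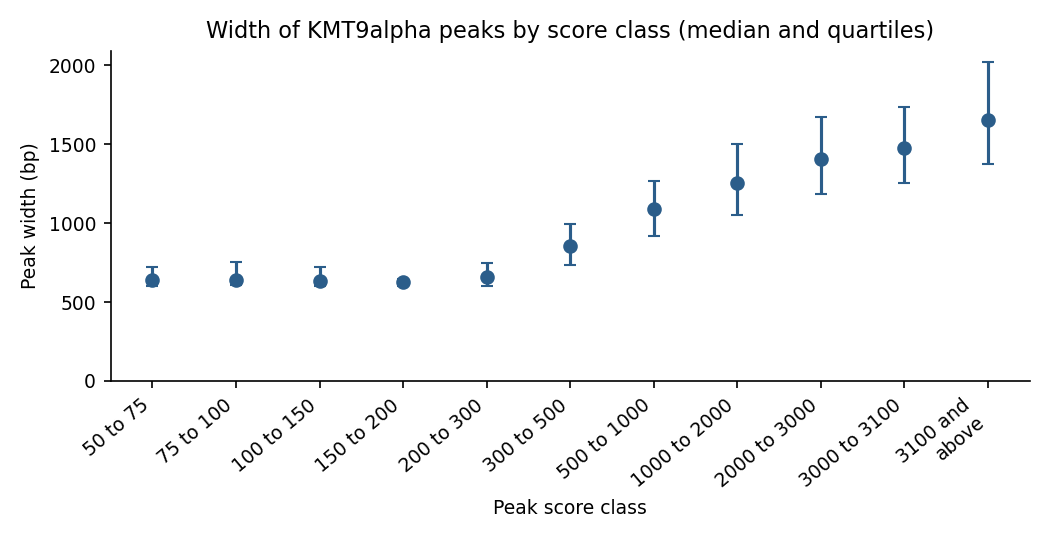
Peak width in bp (vertical axis) by score class (horizontal axis), with points for medians and bars for quartiles. Medians stay between 625 and 656 bp up to a score of 300 and reach 1657 bp at 3100 and above.

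The widest peaks were not all among the highest. The widest, 8631 bp at chr6:47657239-47665869 with a score of 3100, was intergenic, and the nearest coding start, 66213 bp away, was that of Ezh2, the H3K27 methyltransferase. A further intergenic peak of 6784 bp on the same side of Ezh2 scored 3100 as well. Tnrc18, with 8264 bp, and the growth-induced factor Fosl2, with 7713 bp, were at 3100. A peak of 7761 bp at chr19:5842599-5850359 covered the non-coding RNA gene Neat1, which builds nuclear paraspeckles, and was assigned to Frmd8, the nearest coding start. Tmem214, with 6747 bp, was also at 3100.

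The remaining 4 of the 10 widest peaks scored lower. Otof, with 7317 bp, scored 1738.43. The peak nearest Mroh2a, which also covered Hjurp, scored 560.62 over 7810 bp. Cad, the enzyme that starts pyrimidine synthesis, scored 358.88 over 7996 bp. The peak by Sfi1, a centrosome gene, spanned 6791 bp with a score of only 95.89. Cad, Fosl2, Otof and Tmem214 lie in the crowded stretch of chromosome 5 described below.

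Position relative to gene starts was measured from the middle base of each peak to the nearest start of any annotated transcript of a protein-coding gene (GENCODE vM21). Within 1 kb lay 11957 peaks (46.5%, 45.9 to 47.1), and the median distance was 1763 bp (1607 to 1918). That median depended on the starts and chromosomes used: it was 6363 bp with only the 5-prime-most start of each gene, 909 bp with starts of genes of every biotype, 1130 bp without the crowded stretch of chromosome 5 described below, and 821 bp without chromosomes 5 and 19. Within 100 bp of a start lay 4818 midpoints. Between 1 and 5 kb there were 3244, between 10 and 50 kb 5338, and beyond 50 kb 3066. For reference, the same measure put 20.6% of KMT9beta peaks and 21.6% of H4K12me1 peaks within 1 kb. The lists differ in length, and depth is unknown, so these shares do not rank the antibodies.

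Nearness to a start rose with score. At the ceiling 94.99% of peaks (4701 of 4949) lay within 1 kb, compared with 35.0% below it. In the 10 score groups below the ceiling the share was 7.95% in the lowest, between 15.8% and 21.3% in the next 5, and then 32.4%, 55.0%, 76.2% and 89.9%. Of the 498 peaks scoring under 75, 3.82% lay within 1 kb. Viewed from position, 39.3% of near peaks and 1.80% of far peaks were at the ceiling.

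Near peaks were wider than far peaks below the ceiling but not at it. Among peaks below 3100 the median width was 1009 bp near a start and 652 bp farther away. Their median scores were 772.055 and 205.95, so these near and far peaks were not matched for score. At the ceiling, near peaks measured 1651 bp and the 248 far peaks 1799 bp.

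Midpoints lay downstream of the start, in the direction of transcription, more often than upstream. Of the near peaks, 8021 (67.1%, 66.2 to 67.9) were downstream, 3872 upstream and 64 on the start base itself, and the median position was 71 bp downstream. Of the midpoints up to 100 bp from the start, 57.4% were downstream. The share was 73.1% at 100 to 200 bp, 78.1% at 200 to 500 bp and 61.6% at 500 to 1000 bp. Beyond 10 kb the sides were close to even, with 51.7% downstream at 10 to 50 kb and 51.5% farther out.

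Downstream midpoints were the majority in the 3 score ranges compared, with a lower share below 300. They made up 67.8% (66.4 to 69.1) of near peaks at the ceiling, 69.5% (68.3 to 70.8) at scores of 300 to 3100 and 59.0% (56.8 to 61.2) below 300. Near peaks at a start with an opposite coding start within 1 kb, the arrangement of divergent gene pairs, numbered 1206. They were downstream in 62.3% (59.5 to 65.0), with the median at 22 bp. For the other 10751 the values were 67.6% (66.7 to 68.5) and 78 bp.

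**Figure D3:**
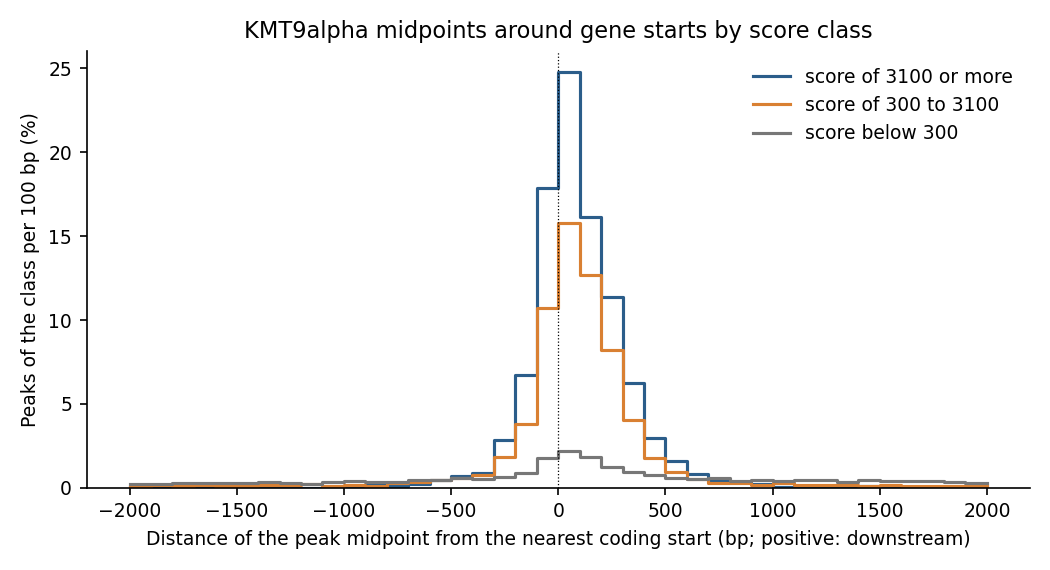
Share of the peaks of a score class per 100 bp (vertical axis, percent) against the distance of the midpoint from the nearest coding start in bp (horizontal axis, positive downstream), for peaks at 3100 or more (blue), 300 to 3100 (orange) and below 300 (grey). The blue and orange profiles peak in the first 100 bp downstream and fall off more slowly downstream than upstream, and the grey profile is low throughout.

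Some peaks spanned the starts of more than 1 gene. Of all peaks, 57.6% contained no coding start, 37.7% contained starts of 1 gene, 4.53% of 2 genes and 48 peaks of 3 or more. At the ceiling, 81.0% contained starts of 1 gene, 13.4% of 2 genes and 0.586% of 3 or more. The peak at Trmt112, which encodes KMT9beta, overlapped the genes Esrra and Prdx5 as well, though such overlap need not include their starts. A peak with starts of several genes was given to 1 gene only, the one nearest its midpoint. Any other gene starting within 1 kb received none from it. Polr1a, a subunit of RNA polymerase I, and Aurka, a mitotic kinase, thus had a midpoint within 1 kb of a start but no peak of their own.

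The 248 ceiling peaks beyond 1 kb often lay at starts of other kinds of gene. Of these, 105 (42.3%, 36.1 to 48.8) lay within 1 kb of the start of an annotated gene that is not protein-coding, among them 43 long intergenic RNA genes and 23 pseudogenes. For far peaks with scores below 300 the share was 5.67%. CpG-rich sequence, meaning an observed to expected CpG ratio of 0.6 or more in the central 300 bp, was found in 75.8% of the far ceiling peaks and in 8.68% of far peaks below 300. The 5 ceiling peaks farthest from a coding start all lay on chromosome 12. They were 375282 to 1157082 bp from the nearest coding starts, which belonged to Gm10330 (for 2 of them), Ywhaq, Gm21863 and Asap2. In 4 of the 5 the midpoint was within 200 bp of the start of a non-coding gene or pseudogene, namely Gm40864, Gm47385, Gm5784 and Gm16476, and the fifth, assigned to Ywhaq, overlapped no annotated gene.

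Most other far peaks were in introns or between genes. Among all 13743 far peaks, 40.1% were intergenic, 39.9% lay in introns of coding genes and 5.89% in coding exons. Their median score was 207.2 and their median width 655 bp.

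Base composition separated the near and far peaks. The median GC content of the central 300 bp was 66% for near peaks and 54.3% for far peaks, against 46.3% in windows placed 3 kb to either side of far peaks. CpG-rich windows made up 74.9% of near peaks, 12.9% of far peaks and 2.01% of the flanking windows. Coding genes were also sorted into 5 equal groups by the CpG ratio in 300 bp at their 5-prime-most start. A KMT9alpha midpoint within 1 kb of any start of the gene was found for 11.9% of genes in the lowest group. The share was then 26.4%, 62.8% and 86.2%, and 91.9% in the highest. A ceiling peak was given to 4.01% of genes in the lowest group and to 49.9% in the highest.

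Letters of known factors were counted as exact matches on either strand in windows of 300 bp. Such a match is not evidence of binding. To hold CpG content roughly level, CpG-rich starts with a peak within 1 kb (8989) were set beside CpG-rich starts without one (1491), whose median GC contents were 66.7% and 65.7%. Each window lay at the 5-prime-most start of the gene. A peak counted when its midpoint was within 1 kb of any annotated start of that gene, so some windows may lie away from the peak. The ETS letters CCGGAAGT, as in the N6amt1 sequence above, were in 10.0% (9.40 to 10.7) of the former and 1.61% (1.03 to 2.39) of the latter, and in 4.97% of all coding starts. The YY1 letters AAGATGGCG were in 4.76% (4.33 to 5.22) and 0.604% (0.276 to 1.14), and in 2.24% of all starts. Smaller gaps were seen for the NRF1 letters CGCATGCGC, at 4.28% and 1.74%, and the cAMP response element TGACGTCA, at 4.06% and 2.01%. The shares were 26.0% and 20.4% for the GC box GGGGCGGGG, 10.8% and 9.86% for the E-box CACGTG, and 1.39% and 1.95% for the TCF/LEF letters ATCAAAG. The CpG ratio was not fully level between these starts, with medians of 0.876 and 0.774. The centres of near peaks were not richer in these letters than coding starts in general. In the central 300 bp of near peaks the ETS letters were in 4.59% and the YY1 letters in 2.29%, close to all starts. The NRF1 letters, the cAMP response element and the GC box were in 1.39%, 1.47% and 12.9% of near peaks. For all starts these shares were 2.11%, 2.32% and 14.7%.

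At far peaks most matches to the YY1 letters lay in repeats. These letters were in the central 300 bp of 381 far peaks (2.77%, 2.50 to 3.06), and in 0.274% of the windows 3 kb beside far peaks. Those 381 peaks held 480 matches, and 446 of these (92.9%, 90.2 to 95.05) lay wholly in bases marked as repeats. When only matches without any repeat base were counted, the share was 0.233% of far peaks and 0.0968% of flanking windows. Of the 274 near peaks with the letters, 258 had a match without any repeat base.

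Many of the repeat matches had the same bases around them. The commonest context of 33 bases, shown above at Nudt12 and Tigd2, occurred 153 times in 136 far peaks on all 19 autosomes. The context at Aldoart1 occurred 51 times and the one at Rxfp1 48 times. Where a far peak had several matches within 1 kb of its midpoint, 756 of 1030 neighbouring matches (73.4%) were exactly 212 bp apart. The class of repeat was not looked up. The 381 peaks with the letters were close to far peaks as a whole in median width (643 bp against 655 bp) and median score (207.83 against 207.2). KMT9beta peaks overlapped 78.5% (74.0 to 82.5) of them and 61.5% of the other far peaks. For H4K12me1 these shares were 47.0% and 40.9%. How the authors treated reads that match many places in the genome is not stated in the labels, and the part of such reads in these peaks was not tested.

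Peaks were then given to the coding gene with the nearest start. Of 20807 coding genes on chromosomes 1 to 19, 12760 received 1 or more peaks, and 11617 (55.8%) had a midpoint within 1 kb of a start. Exactly 1 peak was given to 7446 genes (35.8%), 2 to 2757, 3 to 1145 and 4 to 558. The 854 genes with 5 or more (4.10%) took 27.5% of the peaks, and 2557 genes (12.3%) had 3 or more. When peaks were counted instead for every gene whose body or upstream 1 kb they overlapped, 1616 genes (7.77%) had 3 or more. No peak was given to 8047 genes (38.7%).

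**Figure D4:**
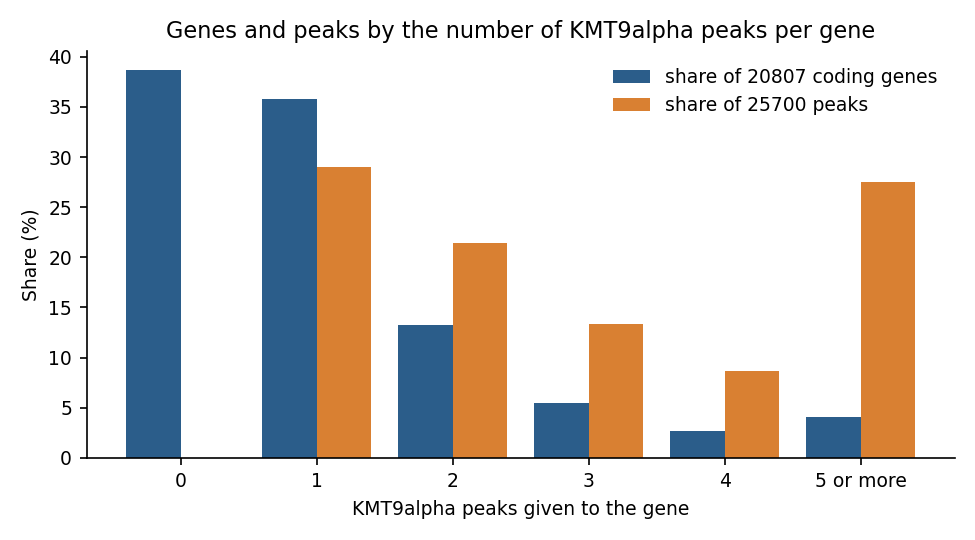
Share in percent (vertical axis) of coding genes (blue) and of peaks (orange) by the number of KMT9alpha peaks given to the gene (horizontal axis). Genes with 1 peak are 35.8% of genes and hold 29.0% of peaks, and genes with 5 or more are 4.10% of genes and hold 27.5% of peaks.

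The peaks of genes with several were mostly not at the start. For genes with a single peak it lay within 1 kb of the start in 79.8% of cases, and its median score was 1647.06. For genes with 2 or more, the highest peak lay within 1 kb in 76.0% and the other peaks in 15.3%. Of all peaks of genes with 5 or more, 17.9% lay within 1 kb. Longer genes had more peaks: with genes in 5 equal groups by length, the mean was 0.682 in the shortest group and 2.03 in the longest.

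Of the 6 genes followed individually, each had its highest peak within 1 kb of an annotated start, and the further peaks differed. Distances are to the nearest annotated start of the gene. That start can lie inside the gene, so a midpoint upstream of it can too. N6amt1 had a peak of 786 bp and score 1968.94 whose midpoint lay 83 bp downstream of its start. Its other peaks, 103601 bp upstream and 32399 bp downstream (inside Ltn1), scored 205.03 and 244.46. Trmt112 had 1 peak of 2622 bp at the ceiling, 149 bp downstream. Apc, the tumour suppressor that restrains beta-catenin, had 1 ceiling peak of 1639 bp. Its midpoint lay inside the gene, 51 bp upstream of an annotated start within it.

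Ctnnb1, which encodes beta-catenin, had 8 peaks. The ceiling peak of 1902 bp was 97 bp downstream of an annotated start inside the gene. A further 6 peaks scoring 197.82 to 573.95 lay 10203 to 151892 bp upstream, and 1 of score 220.18 was also inside the gene. Myc had 6 peaks, the highest of 3306 bp and score 2365.21 at 50 bp downstream of the start. The next highest, 1136.41, lay 51103 bp downstream in an intron of the non-coding gene Pvt1, 464 bp from the start of a Pvt1 transcript. Lgr5, the receptor that marks intestinal stem cells, had 2 peaks, whose midpoints lay inside the gene. They scored 1362.05 at 40 bp upstream and 505.35 at 1046 bp downstream of an annotated start within the gene. The edges of this pair were 2 bp apart, so they form nearly 1 region.

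Genes with the most peaks were gathered on 1 stretch of chromosome 5. From 3 to 33 Mb this chromosome held 2013 peaks (7.83% of the list) in 1.22% of the length, a density of 67.1 peaks per Mb against 9.74 elsewhere. Of these peaks 13.0% lay within 1 kb of a start and 4.27% were at the ceiling, compared with 49.4% and 20.5% elsewhere. Scores below 150 were given to 62.5% of them, but to 3.28% of peaks on the 17 autosomes other than 5 and 19, so 1259 of the 2345 peaks below 150 lay in this stretch. Chromosome 19 stood between these, with 27.8 peaks per Mb, 34.0% within 1 kb and 17.2% below 150. The part that copy number or sequencing background plays in these densities was not tested.

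Of the 10 genes with the most peaks, 8 lay in that stretch: Prkag2, a subunit of the energy sensor AMPK, with 91 peaks, Dpp6 with 64, Babam2 with 58, the morphogen gene Shh with 56, the cell cycle kinase gene Cdk6 with 49, Paxip1 with 48, Insig1 with 40 and Magi2 with 38. Their median scores were between 97.86 and 136.36. Shh was given 7 peaks inside the gene body, and the farthest of the others was 360687 bp from its start. The other 2 were Rasgef1b, at 99 Mb on the same chromosome, with 77 peaks and a median score of 106.14, and the autophagy gene Atg7 on chromosome 6, with 39 and 356.

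Among genes with a start in the stretch, 70.3% had 3 or more peaks, against 11.7% of genes elsewhere. With 222 of the 20807 genes starting there, leaving the stretch out moved the count of genes with 3 or more peaks from 2557 to 2401.

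The gene lists differed in how often their members carried KMT9alpha at a start, to be read against the 55.8% of all coding genes with a midpoint within 1 kb and the 12.3% with 3 or more peaks. Counts below refer to list members on chromosomes 1 to 19, and the lists differ in median gene length, from 10.5 kb for cell cycle to 73.2 kb for stem cell genes against 17.6 kb for all coding genes. The share with a midpoint within 1 kb also ran from 11.9% to 91.9% across the 5 CpG groups above. The CpG ratio of the lists was not compared, so its part in their differences was not tested. A median highest score is over members with a peak, and it was 1816.21 for all coding genes. For ribosome biogenesis and MYC partners all 19 members had a midpoint within 1 kb, 10 had a ceiling peak and 6 had 3 or more peaks, with a median highest score of 3100. They included Ncl, Npm1, Fbl, Nop56, Nop58 and Ubtf, nucleolar proteins, all with a ceiling peak. Cad had the most peaks with 9, followed by Myc with 6, and neither reached the ceiling. Polr1a was given none, as described above.

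Cell cycle and replication genes had a midpoint within 1 kb in 19 of 20, a ceiling peak in 9 and 3 or more peaks in 4, with a median highest score of 2853.36. Cdk6 led with 49 peaks, followed by Ccnd1 with 6. Bub1, a spindle checkpoint kinase, had no peak at all, and Aurka had none of its own. A single peak was given to 9 members and 2 peaks to 5. Those with a single peak included Pcna, the sliding clamp of DNA polymerase, with 2606.73 at 122 bp upstream. Another was Ccnb1, cyclin B1, with 620.24 at 3 bp upstream. These distances are to the nearest annotated start, and the midpoints at Pcna and Ccnb1 lay inside the gene. The ceiling peak of Ccnd1 was farther out, 2325 bp upstream.

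Wnt pathway genes had a midpoint within 1 kb in 18 of 19, a ceiling peak in 12 and 3 or more peaks in 8, with a median highest score of 3100. Tcf7l2, the main TCF factor of the intestine, had 31 peaks, and Lrp5, a Wnt co-receptor, had 18. Both lie on chromosome 19, where the median score was 216.325. Without chromosomes 5 and 19, 16 of 17 had a midpoint within 1 kb and 6 had 3 or more. Wnt3, a ligand, was the member without a midpoint within 1 kb. Its single peak scored 311.84 at 1373 bp upstream.

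Intestinal stem cell genes had a midpoint within 1 kb in 18 of 20 and 3 or more peaks in 12, but a ceiling peak in only 4, namely Axin2, Cdca7, Bmi1 and Znrf3. The median highest score was 1828.18. Nkd1 and Smoc2 had 9 peaks each, with highest scores of 1879.33 and 465.22. Every member received a peak. The exceptions at the start were Olfm4, a secreted stem cell marker, and Aldh1a1, whose highest scores were 268.69 and 148.28. The farthest peak given to Olfm4 was 2083469 bp away. Without chromosomes 5 and 19, 16 of 17 had a midpoint within 1 kb and 11 had 3 or more peaks.

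Epithelial identity genes had a midpoint within 1 kb in 18 of 20, a ceiling peak in 14 and 3 or more peaks in 16, with a median highest score of 3100. Ovol1, an epithelial transcription factor, had 7 peaks with a highest score of 2273.58, and Cldn4, a tight junction protein, had 6 and reached the ceiling. Epcam, Grhl2, Klf5 and Elf3 also had 6. Grhl2, a grainyhead factor, had a ceiling peak 97312 bp upstream of its start besides the one at the start, and its sequence with the YY1 letters is printed above. Cdx2, the intestinal homeobox factor, had 5 peaks and a ceiling peak, though none within 1 kb of a start. Krt20, a keratin of differentiated cells, was given none. Without chromosomes 5 and 19, 14 of 15 had a midpoint within 1 kb and 11 had 3 or more peaks.

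Genes of mature secretory and absorptive cells stood apart from the epithelial list. Only 4 of 20 had a midpoint within 1 kb, 12 received no peak, and none had 3 or more or a ceiling peak. The median highest score of the other 8 was 228.285. Among the 12 were Alpi, the brush border phosphatase, Ang4, a Paneth cell peptide, Muc2, the goblet cell mucin, and Car1 and Fabp1 of absorptive cells. Atoh1, the secretory master regulator, had 2 peaks with a highest score of 356.86, and Sis, a brush border sugar hydrolase, had 2 with 202.59. The 4 with a midpoint within 1 kb were Atoh1, Chgb, Fcgbp and Krt23. Krt23 had the highest score of the list, 736.36 at 212 bp from a start.

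Lists of cell types not expected in an epithelial culture were also low in midpoints within 1 kb, though not all were low in genes with 3 or more peaks. For immune cells 2 of 15 had a midpoint within 1 kb. These were the macrophage gene Cd68, with 1 peak of 317.33, and Itgax, an integrin of dendritic cells, with 1 of 202.29. Adgre1, a macrophage gene, had 1 peak of 229.37 at 7790 bp, and Cd3e and Ptprc had none. For fibroblasts and endothelium it was 5 of 15 (2 of 11 without chromosomes 5 and 19), with Cdh5 and Flt1 at 4 peaks each and Col1a1 and Col1a2 at none. The 5 were Flt1, Pdgfra, Pecam1, Vim and Acta2, and the 3 peaks of Pdgfra all lay within 1 kb. In this list 3 of 15 had 3 or more peaks, and the highest score was 1190.53 at Cdh5. For neurons and germ cells it was 4 of 14, with Rbfox3 at 6 peaks, Syt1 at 3, and Ddx4 and Gria1 at none. Here 2 of 14 had 3 or more peaks, and the highest score was 648.23 at Dazl. No member of these 3 lists had a ceiling peak, and the median highest scores were 222.965, 309.17 and 240.09. A peak list does not measure RNA, so these counts are not a measure of which cells were in the culture.

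**Figure D5:**
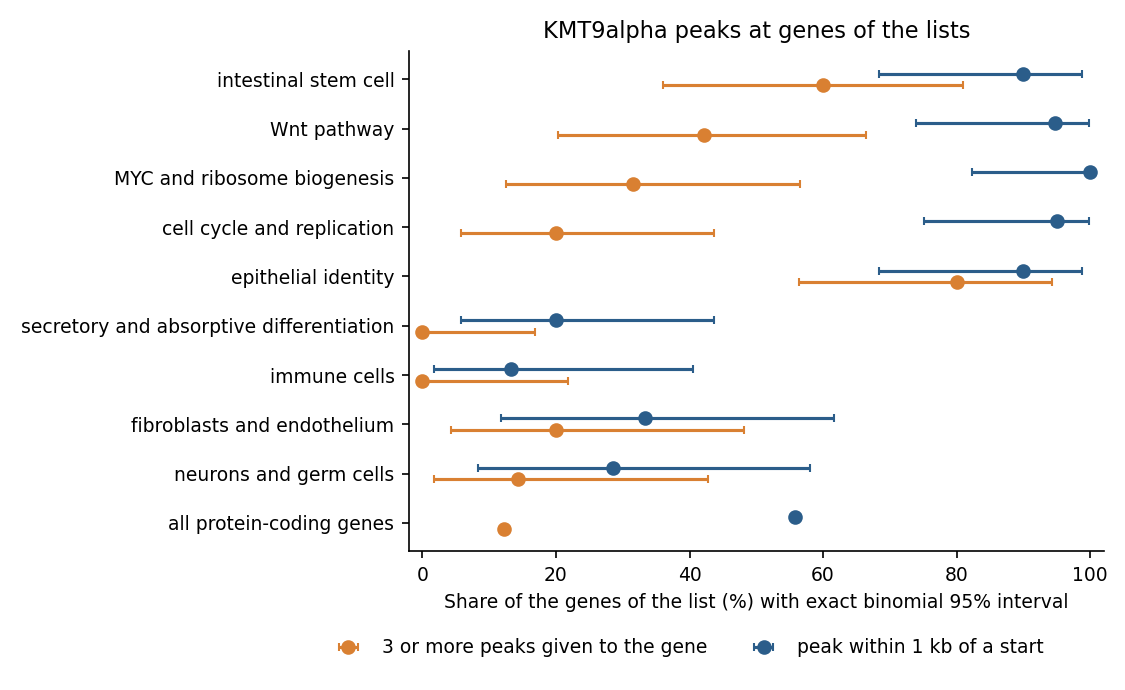
Share of the autosomal members of each gene list in percent (horizontal axis) with a KMT9alpha midpoint within 1 kb of a start (blue) and with 3 or more peaks (orange), with exact binomial 95% intervals as bars. The first 5 lists lie at 90.0% or more in blue, the next 4 lie at 33.3% or less, and all coding genes lie at 55.8%.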

How the data were processed

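ChIP-seq libraries of 1 organoid line were used, 1 for each antibody. Per the labels, reads were mapped to mm10; the protocol names STAR and the submitters' processing notes name Bowtie2, and neither states the peak caller's settings. The deposited list gives each peak a position and a score made by the authors, with names that begin with MACS. It holds no counts, so depth is unknown.

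Midpoints on chromosomes 1 to 19 were compared with every transcript start of protein-coding genes (GENCODE vM21), and each peak was given to the gene with the nearest start (ties to the alphabetically first symbol). Sequences came from RefSeq GRCm38.p6, whose lower-case bases were taken as repeats. Shares have exact Clopper-Pearson 95% intervals, and medians have binomial order-statistic intervals. The members and gene lists were chosen with earlier results of these data known. Named genes were 6 fixed genes, the 10 with the most peaks, those nearest the 10 widest and the 5 farthest ceiling peaks, and per list those with the most and with no peaks; further members were chosen after their values were seen. Measures were checked on simulated peaks. Tools were scipy 1.17.1, pandas 2.3.3, numpy 2.4.6 and matplotlib 3.10.9 under Python 3.11.15.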

Additional observations from a re-analysis of the deposited data

How the results depend on the processing

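Of 54 recomputed values under 13 settings, 31 stayed within the interval of the value reported (for gene counts, within 1.5 times) and 23 moved. Gene counts were compared as numbers, not as shares of the genes examined. With starts of every biotype, 31.7% of 51229 genes had 1 or more peaks and 3.73% had 3 or more. For coding genes these shares were 61.3% and 12.3%. Near midpoints stayed mostly downstream in every setting that recomputed that share. No paired analysis was possible because each antibody has 1 library. The share of peaks within 1 kb (46.5%) was 48.3% with scores of 100 or more, 37.3% with only the 5-prime-most start of each gene, 50.7% with starts of every biotype, 42.3% with a limit of 500 bp, 59.1% with 5 kb, 48.5% from the nearest edge, 49.4% without chromosome 5 from 3 to 33 Mb and 51.0% without chromosomes 5 and 19. The median distance (1763 bp) was 1352 bp with scores of 100 or more, 6363 bp with 5-prime-most starts, 909 bp with every biotype, 1130 bp without the chromosome 5 stretch and 821 bp without chromosomes 5 and 19. The downstream share of near peaks (67.1%) was 80.9% with 5-prime-most starts and 64.7% within 5 kb. The ceiling share (19.3%) was 20.5% without the chromosome 5 stretch, 21.3% without chromosomes 5 and 19 and 18.7% at exactly 3100. Ceiling peaks were near a start (94.99%) in 90.6% at 500 bp, 96.2% at 5 kb and 95.7% from the edge. Genes with 3 or more peaks (2557) were 1616 when peaks were given to every gene whose body with 1 kb upstream they overlapped. The YY1 letters in far peaks (2.77%) fell to 0.233% outside repeats. Leaving out chromosomes 5 and 19, and counting outside repeats, were chosen after seeing the data. Causes were not tested. Replicates are lacking, and unknown depth limits what an absent peak shows.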

Other observations

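Dense runs of peaks occurred outside chromosomes 5 and 19 as well. Atg7 and Hrh1 on chromosome 6, with 39 and 28 peaks, had median scores of 356 and 315.82. Gas8 and Rhou on chromosome 8, with 25 and 26 peaks, had 498.73 and 349.32, and 1 peak of each lay inside the gene body. Lower medians were seen at Gm21119 and Gm15319 on chromosome 8, with 31 and 26 peaks and medians of 155 and 102.61, and at Tcp10c on chromosome 17, with 23 peaks and 143.49. The median score of the chromosome 5 stretch was 120.43.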
